A study of Mus musculus with 8 samples.

Results

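The Hippo effectors examined here are 10 genes chosen by name from the 55276 gene symbols of the count table: the co-activators Yap1 and Wwtr1 (the gene of Taz), the DNA-binding factors Tead1, Tead2, Tead3 and Tead4, the kinases Lats1 and Lats2, the angiomotin-like scaffold Amotl2, and Ankrd1, a widely used target gene of Yap and Taz. All 10 were found in the table, and 9 had enough counts to be tested; Ankrd1 did not. The RNA came from the esophageal epithelium of C57BL6 mice, 14 to 15 weeks old, and was measured in bulk. Live cells carrying integrin beta-1, which the labels call basal cells, were sorted on Cyto-ID, which stains autophagic vesicles, into a Cyto-ID Low and a Cyto-ID High fraction. Each of 2 female and 2 male animals gave 1 library of each fraction, so that 4 High libraries were compared with 4 Low libraries. No genetic or drug treatment is named in the labels, and both fractions passed the same integrin and viability gates.

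In the Hippo pathway, the kinases Stk3 and Stk4 (Mst2 and Mst1) with the adaptor Sav1 activate Lats1 and Lats2, which act with Mob1a and Mob1b to phosphorylate Yap and Taz and so hold them out of the nucleus. Yap and Taz that escape this control bind Tead factors on DNA and switch on genes such as Ccn1, Ccn2, Ankrd1 and Amotl2. The pathway is known for coupling cell contact, polarity and tension to growth, and in stratified epithelia Yap is best known from the proliferating basal layer. Several targets, among them Lats2, Amotl2 and Ptpn14, restrain Yap in turn.

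Tead factors recognise the letters GGAATG, or CATTCC on the other strand. These letters were sought on both strands in RefSeq promoter windows of build GRCm38.p6, each 300 bases long with 250 bases before and 50 after a gene start. Windows were found for 8 of the 10 members (not for Tead1 and Tead4), and 6 of these 8 held the letters, as did 7 of the 15 target genes described below that had a window. Over all promoter windows 14.7% held them, and 16.6% of all genes had them in at least 1 window. A match describes the letters and not binding. The stretches around the matches are shown because they include members that lie upstream and downstream of Tead in the pathway; capitals mark the matched letters, and each is read 5′ to 3′ along the gene's strand.
Yap1 (chr9:8004705-8004764, minus strand): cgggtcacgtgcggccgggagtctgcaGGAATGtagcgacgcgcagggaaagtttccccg
Wwtr1 (chr3:57576014-57576073, minus strand): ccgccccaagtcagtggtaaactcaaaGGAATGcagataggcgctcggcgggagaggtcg
Tead3 (chr17:28350691-28350750, minus strand): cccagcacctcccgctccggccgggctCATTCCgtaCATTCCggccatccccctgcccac
Lats2 (chr14:57746102-57746131, minus strand): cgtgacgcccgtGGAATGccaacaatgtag
Amotl2 (chr9:102717712-102717771, plus strand): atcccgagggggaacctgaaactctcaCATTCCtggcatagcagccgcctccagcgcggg
Ankrd1 (chr19:36120022-36120081, minus strand): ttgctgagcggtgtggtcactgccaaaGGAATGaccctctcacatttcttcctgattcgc
Ankrd1 (chr19:36119935-36119994, minus strand): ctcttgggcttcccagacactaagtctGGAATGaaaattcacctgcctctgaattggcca
Ccn1 (chr3:145650056-145650115, minus strand): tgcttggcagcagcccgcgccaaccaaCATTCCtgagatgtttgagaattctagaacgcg
Tead3 had 3 windows, of which 2 held 4 matches between them, and the stretch shown holds 2 of the 4. The Lats2 match lay 4 bases past its start.

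The 8 libraries held 26285150 to 29301054 counts. Values below are CPM, the counts of a gene relative to its library's total in units of 1e+06 counts, after TMM scaling, which sets the bulk of genes level between libraries. The sorted cells carried keratinocyte markers in both fractions. The summed level of 10 basal markers (Krt5, Krt14, Trp63 and others) was 22032 to 26255 CPM in Low and 2882 to 4577 CPM in High, and all 10 were lower in High. Among them was Itgb1, the gene of the integrin used in the sort, at 323 to 390 CPM in Low and 51.8 to 92.2 CPM in High. It is named after its values were seen. The 10 suprabasal markers (Krt4, Krt13 and others) summed to 8691 to 26106 CPM in Low and 146811 to 247236 CPM in High, all 10 higher, and the 10 proliferation markers to 398 to 1151 and 91.9 to 229 CPM, all 10 lower. Other cells were read from markers of fibroblasts, endothelium, muscle and leukocytes, and no marker was at 0 in all 8 libraries. Of these, Dcn (−2.87) and Fbln1 (−1.93) of fibroblasts, Acta2 (−1.54) and Tnni2 (−1.40) of muscle and Cd207 (−2.24) of Langerhans cells fell, by log2 fold change. Cd68 (2.13) of macrophages rose, and no endothelial marker passed. Not called were 8 of 10 tested fibroblast, 7 of 8 smooth muscle, 9 of 10 skeletal muscle and 6 of 8 leukocyte markers. Of all tested genes 48.7% were called. The leukocyte markers Lyz2 (−0.26) and Csf1r (−0.60) did not pass. All these single markers are named after their values were seen. The part of these shifts in the Hippo results was not tested, and in bulk RNA fewer cells of a type and less RNA per cell cannot be told apart. Summed markers of other cells were lowest in the High library of Male2: 57.8 CPM for fibroblasts and 6.64 CPM for endothelium, against 169 to 496 and 16.5 to 47.3 CPM in the other High libraries and 397 to 570 and 22.4 to 38.8 CPM in Low.

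Between the fractions, the members did not move as a group. In Cyto-ID High, Tead3 and Amotl2 rose and Tead2 and Lats1 fell (edgeR's quasi-likelihood test with sex as a covariate, Benjamini-Hochberg adjusted p under 0.05 over all 17344 tested genes). These were 4 of the 9 tested members, where 48.7% of all tested genes were called, 23.4% higher and 25.3% lower. For 3 of the 9 (Tead2, Tead3 and Lats1) the CPM of the 4 High and the 4 Low libraries did not overlap, as for 48.6% of all tested genes. The median log2 fold change of the 9 was −0.17, beside −0.09 over all tested genes. With the animal as a block, 7 of the 9 were called, 3 higher and 4 lower, beside 53.8% of all genes (25.4% higher and 28.5% lower): Yap1, Lats2 and Tead4 were added.

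Yap1 (chr9:7931999-8004596, minus strand, GRCm38 as for all genes here) encodes the co-activator Yap. It was at 168, 191, 172 and 197 CPM in the Low libraries of Female1, Female2, Male1 and Male2, and at 109, 156, 129.6 and 172 CPM in their High libraries. It was lower in the High library of each animal, but the fractions overlapped, since High Male2 lay above Low Female1. The means were 182 ± 14 CPM in Low and 142 ± 28 in High (SD, n = 4 each). The log2 fold change was −0.36 (edgeR adjusted p 0.103, SE 0.17). With the animal as a block it was −0.38 (edgeR adjusted p 0.0331, SE 0.12), which passed. Exons of Gm20416 overlap Yap1 by 116 bases on the other strand.

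Wwtr1 (chr3:57455649-57575910, minus strand) encodes Taz, the paralog of Yap that binds the same Tead factors. Its levels were 71.5, 51.3, 62.6 and 82.4 CPM in Low and 60.4, 59.5, 46.3 and 81.2 CPM in High, in the same order of animals. High was below Low in 3 of 4 animals and above it in Female2, and both fractions covered nearly the same range. The log2 fold change was −0.11 (edgeR adjusted p 0.695, SE 0.20), with no call under the block either (edgeR adjusted p 0.48). Yap1 made up 58.6% ± 5.1 of the summed Yap1 and Wwtr1 counts per exonic kilobase in Low and 54.3% ± 5.0 in High (SD, n = 4 each). This difference did not pass an exact two-sided permutation test (p = 0.314, adjusted over 6 shares 0.471).

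**Figure D1:**
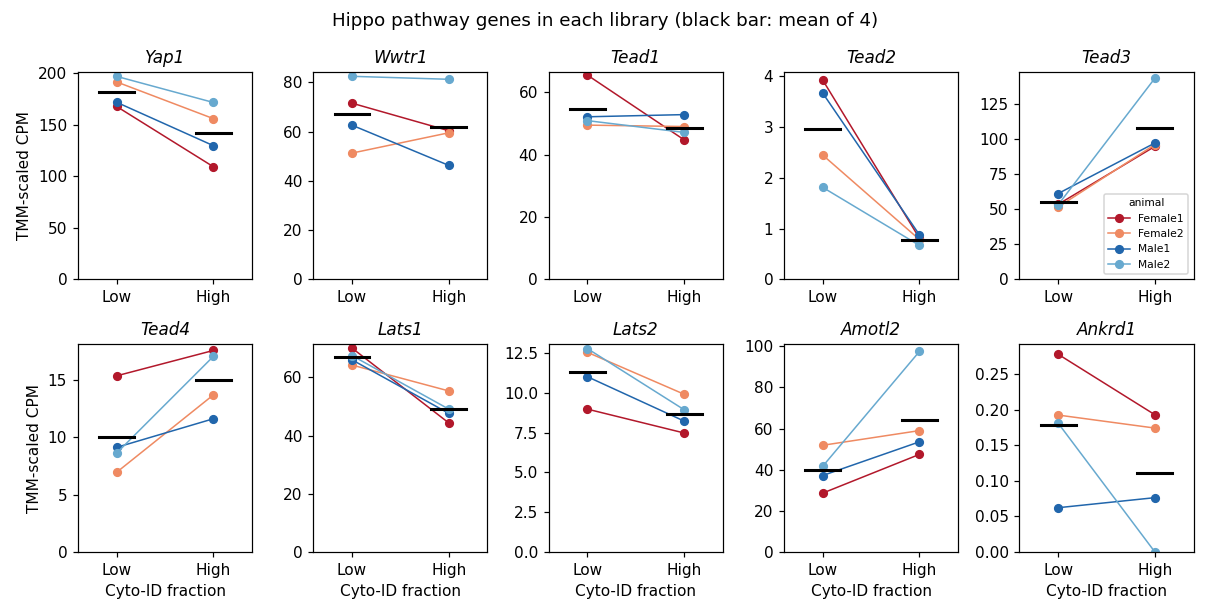
TMM-scaled CPM (y axis, each panel from 0) of the 10 members in the Cyto-ID Low and High library of each animal. Points are libraries, lines join the libraries of an animal and black bars are means of 4; all 4 lines fall for Yap1, Tead2, Lats1 and Lats2 and rise for Tead3, Tead4 and Amotl2, while Ankrd1 stays under 0.28 CPM.

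The Tead factors changed unequally. Tead3 (chr17:28331671-28350817, minus strand), a family member known from placenta, was at 53.4, 51.5, 61.1 and 53.1 CPM in Low and at 94.7, 96.0, 97.1 and 143 CPM in High. Every High library lay above every Low library, and High Male2 stood far above the other High libraries. Tead3 rose by 0.97 on the log2 scale (edgeR adjusted p 0.000603, SE 0.15).

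Tead2 (chr7:45215753-45233644, plus strand), best known from the early embryo, was scarce in both fractions. It was at 3.92, 2.45, 3.67 and 1.81 CPM in Low and at 0.810, 0.784, 0.877 and 0.669 CPM in High, from 60 to 127 and from 13 to 23 counts. The fractions did not overlap, and Tead2 fell by 1.90 on the log2 scale (edgeR adjusted p 0.000883, SE 0.32). Exons of Cd37 overlap it by 13 bases on the other strand.

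Tead1 (chr7:112679318-112906807, plus strand), a broadly expressed member of the family, was at 65.6, 49.5, 52.2 and 51.0 CPM in Low and 44.8, 49.1, 52.9 and 47.2 CPM in High. Outside the Low library of Female1 the fractions were almost level, and the log2 fold change of −0.17 did not pass (edgeR adjusted p 0.349, SE 0.14). Tead4 (chr6:128224288-128300823, minus strand), known from trophectoderm and muscle, was at 15.4, 6.96, 9.13 and 8.63 CPM in Low and 17.6, 13.7, 11.6 and 17.1 CPM in High. It was higher in High in 4 of 4 animals, with fractions that overlapped through Low Female1. Its log2 fold change was 0.59 (edgeR adjusted p 0.0773, SE 0.25). With the animal as a block it was 0.62 (edgeR adjusted p 0.0157, SE 0.17), and without Low Female1 0.85 (edgeR adjusted p 0.0115), both past the threshold. The animals numbered 2 alone gave 0.99 (edgeR adjusted p 0.00371) and those numbered 1 alone 0.31 (edgeR adjusted p 0.0574).

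Because these paralogs were counted in the same libraries, their proportions do not depend on the scaling between libraries. Of the summed Tead counts per exonic kilobase, Tead3 held 44.5%, 55.8%, 56.0% and 54.8% in the Low libraries of Female1, Female2, Male1 and Male2, and 62.8%, 65.3%, 66.4% and 71.8% in their High libraries. The Tead3 share was thus higher in every High library, by 13.8 percentage points on average. Tead1 held 25.8% ± 1.5 in Low and 15.2% ± 2.7 in High, and Tead2 3.91% ± 0.97 and 0.703% ± 0.161 (SD, n = 4 each). Tead4 held 17.5% in both fractions, with an SD of 4.4 in Low and 3.0 in High.

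For Tead1, Tead2 and Tead3 the shares of the fractions did not overlap, and the exact two-sided permutation p was 0.0286 for each, the smallest that 4 against 4 libraries can give. Adjusted over the 6 shares compared, these permutation p-values were 0.0571 and missed the threshold of 0.05. For Tead4 the exact permutation p was 1.0.

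**Figure D2:**
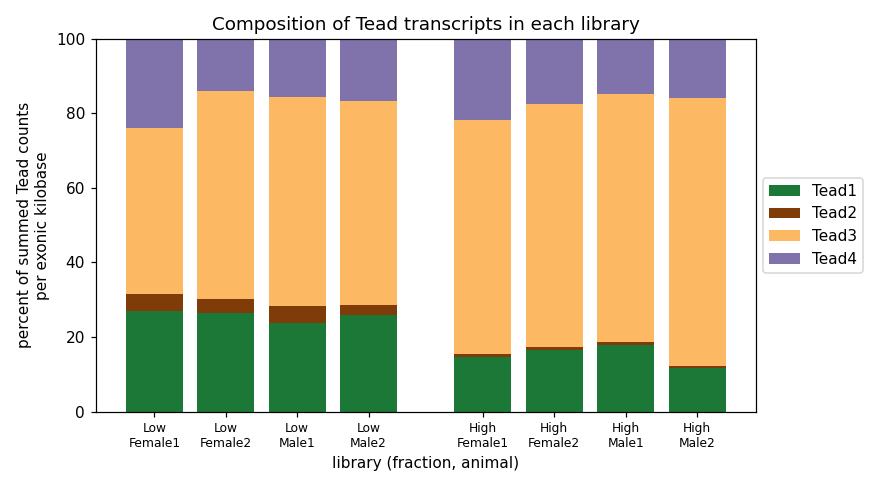
Percent of the summed Tead counts per exonic kilobase (y axis) that each of the 4 Tead genes held in each library (x axis, 4 Low then 4 High). Tead3 takes 44.5% to 56.0% of the bar in Low and 62.8% to 71.8% in High, while the Tead1 and Tead2 segments are smaller in every High library.

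Of the kinases that phosphorylate Yap and Taz, Lats1 (chr10:7681214-7716460, plus strand) was the more abundant. It was at 70.1, 64.3, 66.1 and 67.5 CPM in Low and at 44.4, 55.4, 47.7 and 49.1 CPM in High, with no overlap. Lats1 fell by 0.45 on the log2 scale (edgeR adjusted p 0.0130, SE 0.12). Lats2 (chr14:57689662-57758388, minus strand), itself a target of Yap, was at 8.99, 12.6, 11.03 and 12.8 CPM in Low and 7.49, 9.93, 8.24 and 8.95 CPM in High.

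Lats2 was lower in High in 4 of 4 animals, but the fractions overlapped and its log2 fold change of −0.39 did not pass (edgeR adjusted p 0.0900, SE 0.17); with the animal as a block it did (−0.39, edgeR adjusted p 0.0240, SE 0.12), as it did without Low Female1 (−0.53, edgeR adjusted p 0.0240). In the annotation, 2955 of the 6971 exonic bases of Lats2 also belong to Gm49361 on the same strand, which had at most 1 count in any library. How the authors counted reads in shared exons is not given in the sources used here, so the Lats2 level is uncertain. Lats1 made up 84.9% ± 2.3 of both kinases per exonic kilobase in Low and 84.5% ± 0.5 in High (SD, n = 4 each; exact permutation p = 0.857).

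Amotl2 (chr9:102716672-102733418, plus strand) encodes a junctional scaffold that binds Yap and keeps it in the cytoplasm. It was at 28.6, 51.9, 37.2 and 41.7 CPM in Low and at 47.4, 59.0, 53.5 and 97.5 CPM in High. High exceeded Low in each animal, most of all in Male2, while Low Female2 lay above High Female1. Amotl2 rose by 0.67 on the log2 scale (edgeR adjusted p 0.0482, SE 0.25; with the animal as a block 0.0118). Without the High library of Male2 the change was 0.42 and no longer passed (edgeR adjusted p 0.131), and 4 other single libraries also ended the call when left out (Low Female1, Low Male1, Low Male2 and High Female2; edgeR adjusted p 0.108 to 0.144).

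Ankrd1 (chr19:36111961-36120099, minus strand), also known as a stretch-induced gene of muscle, was near the limit of detection. It had 9, 7, 2 and 6 counts in the Low libraries and 5, 4, 2 and 0 counts in the High libraries. These counts were below the filter, so Ankrd1 was not tested and no fold change is given.

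The scaling set the size of these changes. With libraries scaled by total counts only, the median of all tested genes moved by −0.55 on the log2 scale and 61.7% of genes were called, 2194 higher and 8514 lower in place of 4055 and 4385. All 9 tested members then shifted downwards with the rest. Tead3 still rose, by 0.39 (edgeR adjusted p 0.0136), and Tead2 and Lats1 changed by −2.45 and −1.01. Amotl2 and Tead4 came to 0.07 and 0.03 without a call, while Yap1 (−0.95), Lats2 (−0.96), Tead1 (−0.72) and Wwtr1 (−0.69) passed. No member changed sign between the TMM and the total-count scaling.

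**Figure D3:**
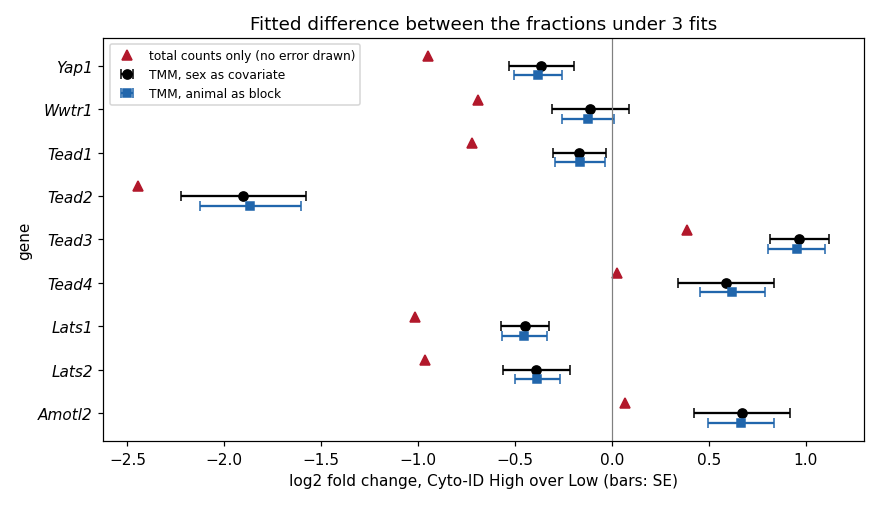
Log2 fold change of Cyto-ID High over Low (x axis) for the 9 tested members (y axis) from the TMM fit with sex as a covariate (circles), the TMM fit with the animal as a block (squares) and total-count scaling (triangles, drawn without error); bars are SE. Tead3 lies to the right of 0 and Tead2, Lats1 and Yap1 to the left under all 3, while Tead4 and Amotl2 come to 0.03 and 0.07 under total counts.

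Levels were ranked between genes after division by exonic length, which merges all annotated exons of a gene. This length can differ from that of the transcripts expressed here, so ranks and shares between genes are approximate. In Cyto-ID Low, Yap1 ranked first at 19.6 ± 1.6 CPM per kilobase, followed by Wwtr1 (14.0 ± 2.8), Lats1 (9.18 ± 0.34), Tead3 (8.16 ± 0.64) and Amotl2 (6.33 ± 1.54; SD, n = 4 each). The ranges of Yap1 and Wwtr1 did not overlap, nor did those of Wwtr1 and Lats1, but Lats1, Tead3 and Amotl2 each overlapped the next. Tead1 (4.02 ± 0.55) and Tead4 (2.79 ± 1.03) overlapped too, and Lats2 (1.63 ± 0.25) and Tead2 (0.619 ± 0.209) came last before Ankrd1.

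In Cyto-ID High the same measure placed Tead3 first at 16.05 ± 3.52 CPM per kilobase, then Yap1 (15.3 ± 3.0), Wwtr1 (12.9 ± 3.0), Amotl2 (10.2 ± 3.6) and Lats1 (6.73 ± 0.63). The ranges of neighbours among these 5 overlapped, so that their order is not fixed beyond the spread. Tead4 (4.17 ± 0.79) and Tead1 (3.57 ± 0.25) overlapped, whereas Lats2 (1.24 ± 0.15) and Tead2 (0.164 ± 0.018) stood apart from their neighbours.

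The regulators that lie upstream of or beside Lats were followed with a list of 25 genes. Of 24 tested, 8 rose and 7 fell in Cyto-ID High, where 23.4% of all tested genes rose and 25.3% fell. The median log2 fold change was −0.22, beside −0.09 over all tested genes. Under total counts 2 rose and 12 fell, where 12.6% of all genes rose and 49.1% fell, so that the share that fell was near that of all genes. Of the core cassette, Stk4 rose by 0.79 (edgeR adjusted p 0.00321, SE 0.17), Mob1b rose by 0.66 (edgeR adjusted p 0.00932, SE 0.17) and Sav1 fell by 0.71 (edgeR adjusted p 0.00126, SE 0.13). The 2 upstream genes that rose under total counts were Wwc1 and Scrib, so the rises of Stk4 and Mob1b were not called there. Stk3 and Mob1a did not pass, at −0.20 and −0.24, nor did Nf2, the gene of the upstream activator Merlin, at 0.03. These 6 genes are named for their place in the pathway, after their values had been seen. Exons of Atl1, which rose by 2.02 in High, overlap Sav1 by 1336 bases on the other strand.

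The upstream genes with the largest changes included a pair of paralogs that moved in opposite directions. Wwc1 (Kibra), a scaffold that activates Lats kinases, was at 49.0 to 67.9 CPM in Low and 151 to 272 CPM in High, and rose by 1.89 (edgeR adjusted p 4.48e-05, SE 0.19). Wwc2, its close relative, was at 42.1 to 61.1 CPM in Low and 7.14 to 11.8 CPM in High, and fell by 2.62 (edgeR adjusted p 1.27e-05, SE 0.17). Neither overlapped between fractions, and both kept their call under total counts, at 1.31 and −3.20. Exons of Cldn22 overlap Wwc2 by 995 bases on the other strand. Cldn22 had 0 counts in every library, and how reads in shared exons were counted is not given in the sources used here, so the Wwc2 level is uncertain in that stretch.

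Scrib, a scaffold of the basolateral membrane, rose from 129.7 ± 13.9 CPM in Low to 337 ± 93 CPM in High, with a log2 fold change of 1.36 (edgeR adjusted p 0.000164, SE 0.17). Crb3, an apical polarity protein, rose from 24.4 ± 9.3 CPM in Low to 47.5 ± 8.9 CPM in High, with a log2 fold change of 0.96 (edgeR adjusted p 0.0171, SE 0.28), and came to 0.41 without a call under total counts. Ajuba, a LIM protein that binds and inhibits Lats, fell from 157 ± 40 CPM in Low to 35.3 ± 5.0 CPM in High, a log2 fold change of −2.16 (edgeR adjusted p 3.44e-05, SE 0.21). Its relatives Limd1 and Wtip, named after their values were seen, had log2 fold changes of −0.36 and −0.69, both called.

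Ptpn14, a phosphatase that holds Yap in the cytoplasm and is also on the target list, fell from 189 ± 18 CPM in Low to 70.6 ± 16.4 CPM in High, with a log2 fold change of −1.43 (edgeR adjusted p 4.88e-05, SE 0.15). Amotl1, the paralog of Amotl2 and named for that reason after its values were seen, went the opposite way to it. It was at 108, 119, 104 and 100.3 CPM in Low and 41.1, 46.3, 46.8 and 51.1 CPM in High, and fell by 1.22 (edgeR adjusted p 6.37e-05, SE 0.13). Amot itself had 0 to 15 counts and was not tested.

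Vgll proteins compete with Yap and Taz for Tead. Of the 4, Vgll1 and Vgll2 had at most 3 counts in any library. Vgll4, a repressor of Tead output, fell from 78.1 ± 10.4 CPM in Low to 39.9 ± 10.4 CPM in High, with a log2 fold change of −0.98 (edgeR adjusted p 0.000643, SE 0.16). Vgll3 was at 0.932 to 2.38 CPM in Low and 3.77 to 6.88 CPM in High, and rose by 1.69 (edgeR adjusted p 0.000449, SE 0.26).

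The output of the pathway was read from a 22-gene target list in common use, which holds the members Lats2, Amotl2 and Ankrd1. Of 20 tested genes 10 fell, 5 rose and 5 did not pass, where 25.3% of all tested genes fell and 23.4% rose; the share that rose was near that of all genes. Under total counts 13 fell and 4 rose, where 49.1% of all genes fell and 12.6% rose. The TMM median log2 fold change was −0.83, beside −0.09 over all tested genes. The classical targets Ccn1 and Ccn2 both fell in High; Ccn1 is named after its values were seen. Ccn2 (connective tissue growth factor) was at 119.6, 42.5, 196 and 80.7 CPM in Low and 10.9, 5.35, 8.92 and 10.5 CPM in High, and fell by 3.57 (edgeR adjusted p 0.000103, SE 0.42). Exons of Gm15270 overlap Ccn2 by 665 bases on the other strand, and it had 0 to 14 counts. Ccn1 (Cyr61) was at 202, 223, 342 and 219 CPM in Low and 66.6, 117, 65.5 and 103 CPM in High, and fell by 1.47 (edgeR adjusted p 0.000986, SE 0.25).

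Beside these targets, genes that respond to the stress of cell dissociation were followed with a list of 12. Their summed level was 16600 to 20768 CPM in Low and 11443 to 25145 CPM in High; 1 rose (Ier2) and 2 fell (Jun and Atf3), and 9 did not pass, where 23.4% of all tested genes rose and 25.3% fell. Jun, a subunit of the AP-1 transcription factor, had a log2 fold change of −0.84 (edgeR adjusted p 0.0132), and Atf3, a stress-induced transcription factor, one of −0.96 (edgeR adjusted p 0.00400), both without overlap between the fractions. Low Male1 was the highest library for Jun, Atf3, Ccn1 and Ccn2, and all 4 differed most between fractions in Female1 and Male1. Igfbp3, a target that is not on the stress list, had the same pattern. Fos (0.37) and Egr1 (0.40) of the stress list did not pass and were highest in High Male2. The part of the stress response in the fall of Ccn1 and Ccn2 was not tested. Ier2, Jun, Atf3, Fos and Egr1 are named after their values were seen.

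Igfbp3, an insulin-like growth factor binding protein, fell from 796 ± 386 CPM in Low to 64.5 ± 35.9 CPM in High, with a log2 fold change of −3.61 (edgeR adjusted p 0.000215, SE 0.48). Its Low libraries were uneven, with 259 CPM in Female2 and 811 to 1159 CPM in the others. The growth factor gene Tgfb2 fell from 4.85 ± 1.29 CPM in Low to 0.952 ± 0.420 CPM in High, with a log2 fold change of −2.36 (edgeR adjusted p 0.000379, SE 0.35). Myof, a membrane-repair protein named after its values were seen, fell by 1.66 (edgeR adjusted p 2.64e-05, SE 0.15).

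Against these stood targets that rose. F3, the gene of tissue factor, was at 211, 139, 180.1 and 341 CPM in Low and 934, 1385, 1131 and 1671 CPM in High, and rose by 2.58 (edgeR adjusted p 6.29e-05, SE 0.28). Nt5e, the ectonucleotidase CD73, rose from 20.3 ± 4.5 CPM in Low to 84.6 ± 14.6 CPM in High, with a log2 fold change of 2.06 (edgeR adjusted p 3.95e-05, SE 0.20). Nuak2, a kinase of the AMPK family, rose from 21.1 ± 2.4 CPM in Low to 86.9 ± 22.1 CPM in High, with a log2 fold change of 2.04 (edgeR adjusted p 4.11e-05, SE 0.20). For these 3 the fractions did not overlap, and each kept its call under total counts, at 1.99, 1.48 and 1.45. Amotl2 and Arhgef17, the latter named after its values were seen, were the other targets that rose. With the animal as a block, 11 targets fell and 6 rose, beside 28.5% and 25.4% of all genes; the calls added were Lats2 and Axl. Axl, a receptor tyrosine kinase named after its values were seen, was higher in High in 4 of 4 animals (log2 fold change 0.40, edgeR adjusted p 0.0687; with the block 0.39, edgeR adjusted p 0.0171).

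**Figure D4:**
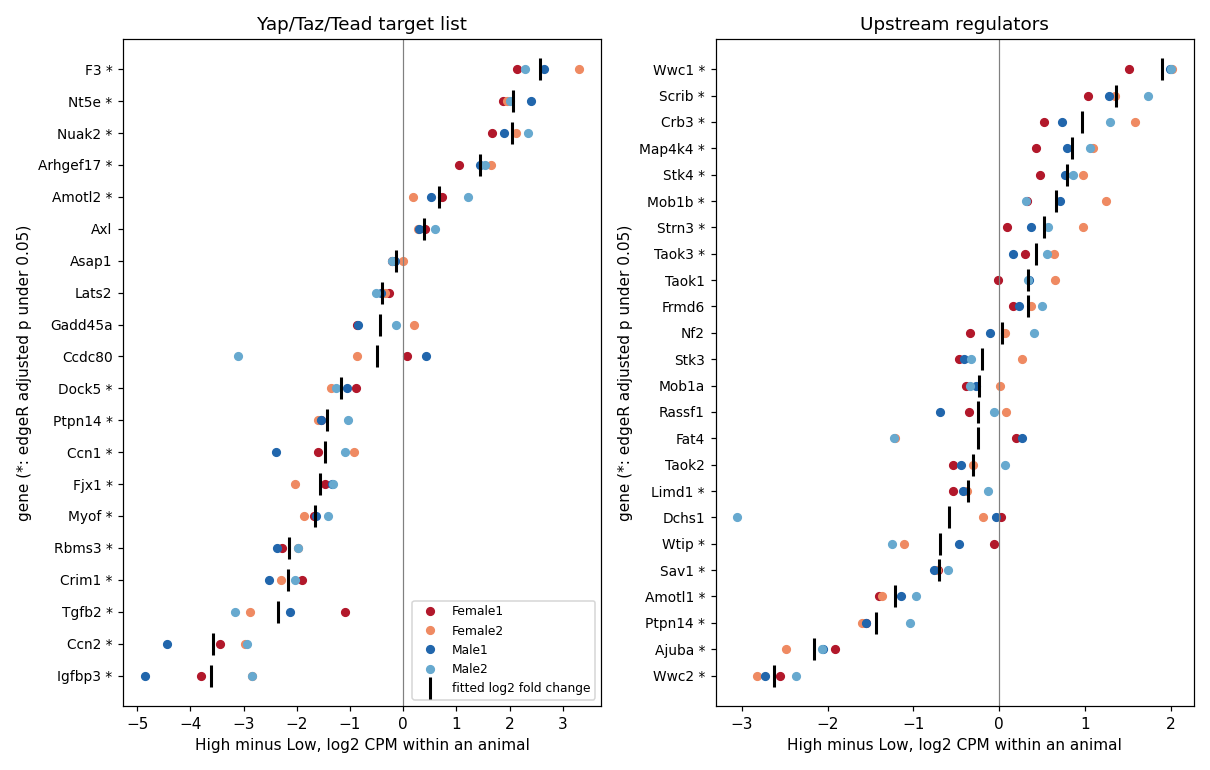
High minus Low difference in log2 CPM within each animal (x axis; coloured points) and the fitted log2 fold change (black bars) for the tested genes (y axis) of the target list (left) and the upstream list (right); asterisks mark an edgeR adjusted p under 0.05. On the left F3, Nt5e and Nuak2 lie at 2.04 to 2.58 and Igfbp3 and Ccn2 near −3.6. On the right Wwc1 and Wwc2 stand at opposite ends. The Male2 points of Ccdc80 (left) and Dchs1 (right) lie far from the other animals.

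In the plot of differences by animal, Ccdc80 and Dchs1 were lowest in Male2, whose High library also had the lowest summed fibroblast markers; both are named after their values were seen. Neither passed (log2 fold changes −0.49 and −0.58), and the part of fibroblast RNA in them was not tested.

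The genes whose profile over the 8 libraries was most like that of Yap1, by the root-mean-square difference of centred log2 CPM among 11043 genes, were Zfp236 (0.0585), Cables2 (0.0653) and Rbfa (0.0670). For Wwtr1 they were Cdca4 (0.0950), Gm11824 (0.113) and Pnp2 (0.116), each less close than the 3 of Yap1.

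Whether the difference between fractions depended on sex was tested as an interaction. None of the 9 tested members passed. The smallest unadjusted p among them was 0.315, for Amotl2, whose interaction term of 0.53 on the log2 scale was also the largest. Over all 17344 genes 0% were called (edgeR's quasi-likelihood test, 0 genes at an adjusted p under 0.05 and 19, or 0.11%, at an unadjusted p under 0.05). Each sex had 2 animals, and 0.11% of genes is far fewer than chance alone would give at that threshold. The test was thus conservative, and a missing call does not show that the fractions differ alike in both sexes.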

How the data were processed

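Counts for all 8 libraries stand in 1 table that the authors deposited, with gene symbols as rows; its whole numbers and unequal totals mark them as not normalized. STAR 2.7.3, DESeq2 and build GRCm38 are named in the submitters' processing notes; the counting tool, annotation and use of strand are not given in the sources used here. The 10 members, the lists and the tests were chosen with earlier results of these data known. Genes were filtered with filterByExpr, scaled by TMM and tested in edgeR 4.0.16 (R 4.3.3) with sex as a covariate; each SE was derived from the fold change and its F statistic, and the threshold was an adjusted p of 0.05. Log2 CPM used a prior count of 2. Exon lengths (all annotated exons of a gene merged), overlaps and coordinates are from GENCODE M21 (GRCm38), promoters from RefSeq. The fits were tested on simulated counts. From each list the text names the 3 genes with the largest change in each direction among those called with a mean of at least 1 CPM; like profiles needed a mean of at least 5 CPM. Alternatives used RLE, total counts, other filters, DESeq2 1.42.0, limma-voom (limma 3.58.1), robust dispersion, no covariate, a replicate block and subsets of libraries.

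Libraries of an animal could be paired. Each animal names 1 library of each fraction, and 1 cell suspension was sorted into both, per the labels' protocols. The main fit and the permutation tests of 4 against 4 libraries left this pairing out. The fit with the animal as a block used it. Deviations from the fraction means correlated across genes at 0.43, 0.32, −0.02 and 0.28 within Female1, Female2, Male1 and Male2, and at −0.37 to 0.35 between libraries of different animals (0.35 for High Male1 and Low Female1), so the pairing rests on the labels and not on these correlations. Errors are the spread between the libraries of these 4 animals.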

Additional observations from a re-analysis of the deposited data

Results flagged for a closer look

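In 32 groups of 4 libraries (the 10 members and 6 shares in each fraction), the highest and lowest library were compared with the others by Dixon's test. About 1 group in 20 is marked by chance alone, and 3 were marked. Tead1 in the Low library of Female1 stood at 65.6 CPM, where the other Low libraries had 49.5 to 52.2 CPM. The Tead3 share of the same library was 44.5%, where the other Low libraries had 54.8% to 56.0%. Tead3 in the High library of Male2 stood at 143 CPM, where the other High libraries had 94.7 to 97.1 CPM. Without Low Female1 the Tead3 share differed by 11.1 percentage points, and without High Male2 by 12.1, in place of 13.8.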

How the results depend on the processing

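Over the 19 alternatives, Tead2 and Tead3 were the 2 of 9 tested members that kept direction and call in each. Members called numbered 4, and 7 both with the replicate block and with total counts only. In the upstream list 2 rose and 12 fell under total counts, where 12.6% of all genes rose and 49.1% fell; alternatives for the list counts were chosen after seeing the data. Wwtr1 changed sign, to 0.102 with the animals numbered 2 alone, and ran from −0.272 to 0.0504 without single libraries, never with a call there. Of the genes like Wwtr1, Cdca4 came to 0.0332 and Pnp2 to 0.218 with the animals numbered 2 alone, and Pnp2 ran from −0.327 to 0.0400 without single libraries. The Tead4 share changed sign on raw counts (0.73 points) and ran from −1.46 to 2.08 without single libraries; that of Lats1 ran from −1.12 to 0.60. The cause was not tested. Lats1 lost its call in the animals numbered 2 alone (−0.33, edgeR adjusted p 0.158), Amotl2 in the same animals (0.71, edgeR adjusted p 0.0503). Called genes numbered 8440, and 7269 (without Low Male1) to 10708 over the alternatives. Left-out libraries gave 3 to 5 members. Shares cannot pass 0.05 with 4 against 3 libraries or with 4 pairs (smallest exact p 0.0571 and 0.125). The block changed no other call than those of Yap1, Tead4 and Lats2 among the members. No interaction was called in the alternatives run for it (scalings, filters, the block and left-out libraries), with 17 to 1197 genes (the latter without High Male1) at an unadjusted p under 0.05 by edgeR. Besides the block and the settings given in the text, Tead4 passed with RLE scaling (edgeR adjusted p 0.0475), with no filter (edgeR adjusted p 0.0385) and in DESeq2 (adjusted p 0.0300), and Yap1 passed with at least 10 counts in every library (edgeR adjusted p 0.0303) and in the animals numbered 1 alone (edgeR adjusted p 0.0144). Ankrd1, with 0 to 9 counts in a library, was left out by the count filter.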
